A study of Mus musculus with 6 samples.

Results

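The miR-106b-25 cluster is a group of 3 microRNA (miRNA) precursors, Mir106b, Mir93 and Mir25, that lie together inside the mouse gene Mcm7. Its 6 mature miRNAs, both arms of each precursor, were taken by name from the deposited table (mmu-miR-106b-5p, mmu-miR-106b-3p, mmu-miR-93-5p, mmu-miR-93-3p, mmu-miR-25-3p and mmu-miR-25-5p, written without the species prefix from here on). All 6 were among the 1034 distinct mature miRNAs it holds. The table measures miRNAs in nephron progenitor cells, the kidney cells from which nephrons form, taken from CD1 mice at 2 stages. These were the embryonic stage E14.5 and P0, the day of birth, with 3 samples each. Each sample was the pooled kidneys of 1 litter, up to 24 of them. The pool was digested for 15 min to free the outer cells, and progenitors were captured on beads carrying an antibody to the surface integrin Itga8. No genotype or treatment other than the stage distinguishes the groups, and no mRNA was measured here that could show the progenitor identity of the cells.

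A miRNA precursor folds into a hairpin that is cut to a short duplex. One strand of the duplex, the guide, is usually loaded onto an Argonaute protein and pairs with messenger RNAs through its seed, bases 2 to 8, while the other strand, the passenger, is usually discarded. Mcm7 encodes a subunit of the helicase that opens DNA for replication, a gene of dividing cells, and the cluster is transcribed with it. The cluster is a paralogue of the miR-17-92 cluster and of the X-linked miR-106a-363 cluster. In mice the miR-17-92 cluster is required for normal nephron progenitor proliferation and kidney development, and the families share targets that restrain the cell cycle and promote cell death, such as Cdkn1a and Bcl2l11.

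The mature sequences are shown first, because the seed decides which family a member belongs to and the comparisons with relatives follow those families. They are RefSeq sequences (GRCm38.p6), 5′ to 3′, with the seed in capitals, and 6 of 6 members were matched at the table's own positions. The conventional guide strands are miR-106b-5p, miR-93-5p and miR-25-3p.
miR-106b-5p: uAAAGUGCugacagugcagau
miR-93-5p: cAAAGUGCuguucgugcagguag
miR-25-3p: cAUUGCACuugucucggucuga
miR-106b-3p: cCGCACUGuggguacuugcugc
miR-93-3p: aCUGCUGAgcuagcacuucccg
miR-25-5p: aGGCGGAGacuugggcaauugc

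miR-106b-5p and miR-93-5p share the seed AAAGUGC with miR-17-5p, miR-20a-5p, miR-20b-5p and miR-106a-5p, so 6 miRNAs of the table carry it. miR-25-3p carries the seed AUUGCAC, which 5 miRNAs of the table have, among them miR-92a-3p and miR-32-5p. Each passenger strand has a seed that no other of the 885 table miRNAs with a RefSeq sequence has. These relatives are printed because the cluster is compared with them.
miR-17-5p: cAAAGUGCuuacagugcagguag
miR-20a-5p: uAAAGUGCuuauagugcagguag
miR-92a-3p: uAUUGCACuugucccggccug
miR-32-5p: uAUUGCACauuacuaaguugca

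How far the members differ in sequence from other miRNAs bears on how well short reads can be assigned, and 885 miRNAs of the table could be compared. The closest sequence to miR-93-5p is miR-17-5p at an edit distance of 3 bases, and that to miR-25-3p is miR-92a-3p at 4. Those closest to miR-106b-5p, at 5, include miR-106a-5p and miR-17-5p. miR-20b-5p is also 3 bases from miR-93-5p. The passenger strands are at least 6 bases from any other. The GC content was 42.9% in miR-106b-5p, 50% in miR-25-3p, 52.2% in miR-93-5p and 59.1% to 63.6% in the passenger strands.

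The hairpins are shown with both mature arms in capitals, because the arms of 1 hairpin are cut from the same molecule and their ratio is compared between stages.
Mir106b: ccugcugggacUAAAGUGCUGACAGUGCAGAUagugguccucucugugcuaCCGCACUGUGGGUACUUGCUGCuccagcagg
Mir93: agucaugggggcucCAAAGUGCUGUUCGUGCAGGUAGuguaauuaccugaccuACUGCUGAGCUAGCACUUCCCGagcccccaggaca
Mir25: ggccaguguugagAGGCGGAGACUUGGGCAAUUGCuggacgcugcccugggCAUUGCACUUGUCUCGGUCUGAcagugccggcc

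The hairpins follow each other on the minus strand of chromosome 5 (GRCm38), Mir106b at chr5:138165737-138165818, Mir93 at chr5:138165523-138165610 and Mir25 at chr5:138165321-138165404. They span 498 bases, with gaps of 126 and 118 bases between neighbours. In the GENCODE annotation all 3 lie on the strand of Mcm7, in the intron between exons 13 and 14 of its protein-coding transcript. Mir93 and Mir25, but not Mir106b, also lie inside exon 1 of a transcript that retains this intron. Mcm7 is the only other gene that overlaps them in that annotation.

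Values are TPM, reads divided by the table's end minus start, which is 1 less than the length of the mature miRNA, and scaled to the same sum in each library. They are listed in the order of replicates 1, 2 and 3. The reads behind them, recovered as whole numbers, came to 2649506, 23691028 and 5128723 for E14.5 and to between 21508833 and 34934526 for P0. Every member had reads in every library, and none was near the floor of 3 reads. P0 replicate 1 stood apart from its group. Across 670 miRNAs it had a mean correlation of 0.948 with the libraries of E14.5 but 0.908 with those of its own stage, so results are also given without it. The median log2 fold change over all 670 was −1.20 in TPM. Median-of-ratios scaling, which divides each library by its typical ratio to the others, brought that median to −0.17. A member's change in TPM is therefore read against −1.20, and both scalings are given.

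miR-93-5p and miR-25-3p were abundant miRNAs of these cells at both stages. miR-93-5p had 11705, 19087 and 11677 TPM at E14.5 and 21263, 5728 and 5856 TPM at P0. It ranked between 14 and 23 among all miRNAs of a library. P0 replicate 1 held the highest level of the 6 libraries and the other P0 libraries the lowest, so the stages overlapped. miR-25-3p had 11066, 14905 and 10715 TPM at E14.5 and 20287, 6902 and 6605 TPM at P0 and ranked between 15 and 25. Its order over libraries was almost that of miR-93-5p, with the highest level again in P0 replicate 1.

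miR-106b-5p, which has the same seed as miR-93-5p and comes from the same intron, was far less abundant and was lower at P0. It had 1015, 327 and 868 TPM at E14.5 and 162, 57.8 and 57.3 TPM at P0. Every P0 library was below every E14.5 library, with E14.5 replicate 2 lying between the other E14.5 libraries and the P0 libraries. The mean was 737 ± 362 TPM (SD, n = 3) before birth and 92.3 ± 60.2 TPM (SD, n = 3) at birth. Its rank in a library ran from 89 to 195.

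The passenger strands were low, with 1 exception. miR-106b-3p had 474, 507 and 356 TPM at E14.5 and 298, 100.4 and 96.3 TPM at P0, with means of 446 ± 79.5 and 165 ± 115 TPM (SD, n = 3). It reached the level of its own guide strand and did not overlap between the stages. miR-93-3p had 75.7, 165 and 84.4 TPM at E14.5 and 92.9, 21.1 and 21.1 TPM at P0, where the first P0 library lay within the E14.5 range. miR-25-5p had 38.2, 103 and 38.0 TPM at E14.5 and 55.0, 119 and 65.8 TPM at P0, and was the only member with a higher mean TPM at P0. Its stages overlapped.

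**Figure D1:**
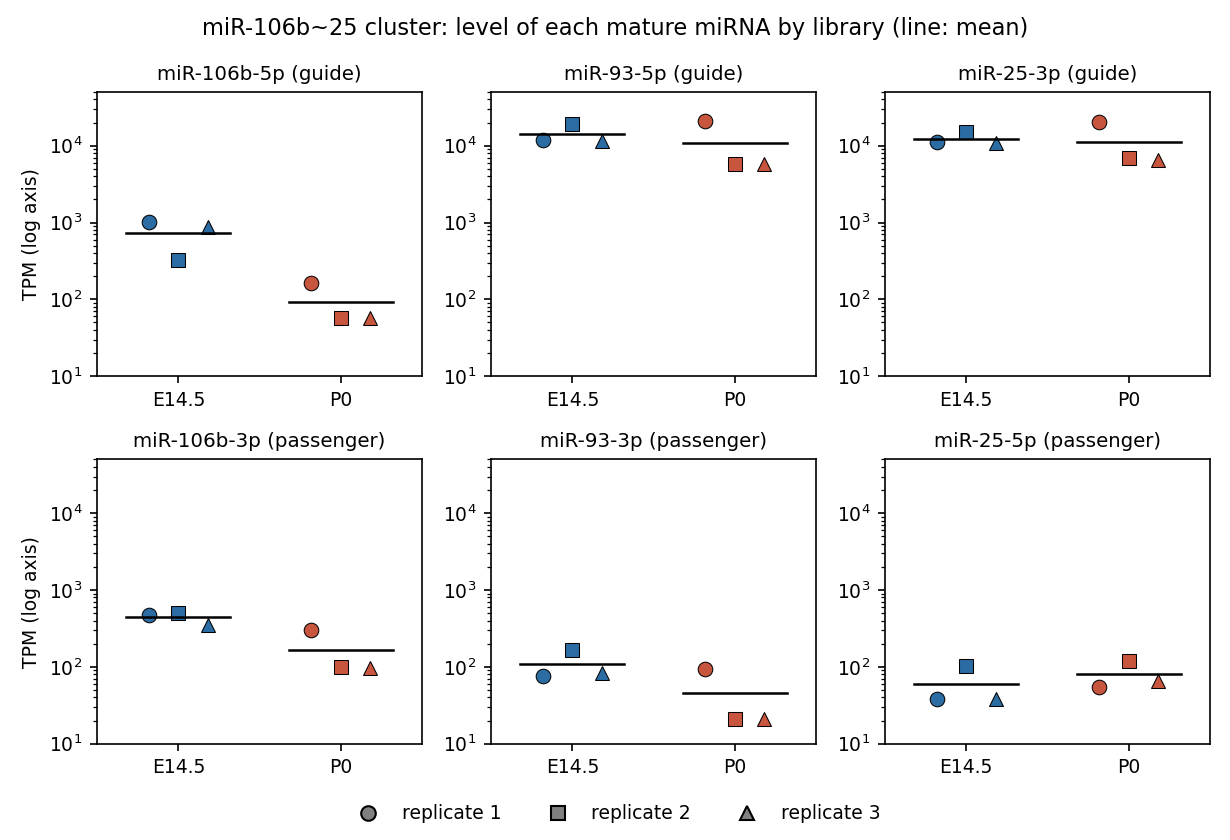
TPM of the 6 mature miRNAs of the cluster (log axis) in the 3 E14.5 and 3 P0 libraries, guide strands above and passenger strands below; each point is 1 library, its shape the replicate, and the line is the mean of the stage. miR-93-5p and miR-25-3p lie between 5728 and 21263 TPM, miR-106b-5p lies between 57.3 and 1015 TPM, and only miR-106b-5p and miR-106b-3p separate the stages.

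The change between stages was tested with limma on log2(TPM + 1) over the 670 miRNAs whose mean reached 1 TPM, a filter that all 6 members passed. Both arms of Mir106b fell in TPM, and no other member passed the threshold of 0.05 on the Benjamini-Hochberg adjusted p. That is 2 of 6 members, against 34.2% of all tested miRNAs, so the count is near the background. All of these calls among members were downward, as in 32.8% of the tested miRNAs, and no member was called higher, against 1.34%. For miR-106b-5p the test gave a log2 fold change of −3.01 (SE of 0.64, limma adjusted p = 0.00610), 1.81 below the median of all tested miRNAs, and 8.51% of them had a lower value. miR-106b-3p had −1.62 (SE 0.59, limma adjusted p = 0.0487), which was 0.43 below the median. This call was lost with limma-voom on the recovered reads, without a filter, with a pseudocount of 0.1 and with rows summed. The stages did not overlap for 2 of 6 members, against 49.6% of all tested miRNAs.

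The other members did not pass in TPM. miR-93-5p had a log2 fold change of −0.62 (95% interval −1.81 to 0.57, limma adjusted p = 0.367), and miR-25-3p had −0.31 (−1.41 to 0.79, limma adjusted p = 0.627). miR-93-3p had −1.52 (−3.01 to −0.04, limma adjusted p = 0.0957), and miR-25-5p had 0.50 (−0.84 to 1.84, limma adjusted p = 0.516). The abundant guides thus had values above the median of −1.20 and the arms of Mir106b and miR-93-3p had values below it. These intervals still allow a rise of more than 1 on the log2 scale for miR-25-5p and a fall of more than 1 for miR-93-5p, miR-25-3p and miR-93-3p.

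After median-of-ratios scaling 0 of 6 members were called with limma, against 10.9% of all tested miRNAs. The stages did not overlap for 2 members, lower at P0 for miR-106b-5p and higher for miR-25-3p, against 35.4% of all tested miRNAs. miR-106b-5p kept its direction with −1.73 (SE 0.53, limma adjusted p = 0.0588; unadjusted p = 0.00804), and miR-25-5p had 1.76 (SE 0.64, limma adjusted p = 0.0861; unadjusted p = 0.0193). No other member had an unadjusted p under 0.05. miR-106b-3p shrank to −0.34 (limma adjusted p = 0.630) and miR-93-3p to −0.26 (limma adjusted p = 0.782). miR-93-5p and miR-25-3p turned positive, at 0.66 (limma adjusted p = 0.353) and 0.97 (limma adjusted p = 0.150), so their direction depends on the scaling. In the authors' deposited table, 0 of the 6 members had an adjusted p under 0.05, against 10.4% of its miRNAs. That table gave log2 fold changes of −1.38 for miR-106b-5p (adjusted p = 0.135) and 1.19 for miR-25-5p (adjusted p = 0.189), with the other members between −0.83 and 0.64.

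Many calls depended on P0 replicate 1. Without it 5 of 6 members were called lower in TPM, all but miR-25-5p, while 53.4% of all tested miRNAs were. miR-93-5p then had −1.25 (limma adjusted p = 0.00296), miR-93-3p −2.22 (limma adjusted p = 0.00120) and miR-25-3p −0.84 (limma adjusted p = 0.0158). The values of miR-93-5p and miR-25-3p remained above the median of all miRNAs, which was −1.42 without that library. With median-of-ratios scaling and without P0 replicate 1, miR-106b-5p was called lower (limma adjusted p = 0.00780) and miR-25-5p higher at 2.21 (limma adjusted p = 0.0113), among 48.7% of all tested miRNAs called in either direction. The fall of miR-106b-3p in TPM passed the threshold only with all 6 libraries or without P0 replicate 1. The fall of miR-106b-5p missed the threshold without E14.5 replicate 3 (−2.81, limma adjusted p = 0.0510).

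The ratio of the arms of a hairpin compares reads of the same library, so no scaling of libraries enters it. In Mir106b the 5p arm was the more abundant in E14.5 replicates 1 and 3, at 2.14 and 2.44 times the 3p arm in TPM. In E14.5 replicate 2 it was the less abundant, at 0.645 times, and in the P0 libraries it stood at 0.543, 0.575 and 0.595 times. As a share of the reads of both arms, the 5p arm took 67.1% (95% Wilson interval 65.6 to 68.6), 38.1% (37.4 to 38.8) and 69.9% (68.7 to 71.1) in the E14.5 libraries. It took 34.1% (33.3 to 34.8), 35.4% (33.8 to 37.0) and 36.2% (34.5 to 37.8) in the P0 libraries. Which arm of the hairpin led thus differed within the E14.5 group, and all P0 libraries were alike in this respect. The intervals cover counting error only.

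The libraries in which miR-106b-5p led were the shallowest, with 2649506 and 5128723 reads, while the other 4 had at least 21508833. All 5 lists of marker miRNAs of other cells (endothelial, stromal, erythroid, leukocyte and epithelial) also had their highest summed TPM in those libraries, with E14.5 replicate 2 the lowest of its stage in each. After median-of-ratios scaling only the epithelial list kept this pattern. The highest scaled sum was in P0 replicate 2 for the erythroid list (364) and in P0 replicate 3 for the stromal list (25484). The scaled endothelial sum was lowest at E14.5 in replicate 3, at 16727 against 18110 in replicate 2. The scaled leukocyte sum of E14.5 replicate 3 (723) was below that of P0 replicate 1 (857). The epithelial list held 5 miRNAs of the miR-200 family. They came to 23183, 4122 and 14657 TPM at E14.5 and to between 500.2 and 1542 TPM at P0, with no marker at 0. The endothelial sums were 44921, 26608 and 28678 TPM at E14.5 and the stromal ones 34716, 22316 and 28409 TPM. The part of depth and of other cells in the arm ratio was not tested. In bulk samples fewer cells of a type and less RNA per cell cannot be told apart.

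In Mir93 the 5p arm dominated in every library, with a higher ratio in each P0 library. It stood at 155, 116 and 138 times the 3p arm at E14.5 and at 229, 271 and 278 times at P0, without overlap. On the log2 scale the mean ratio was 7.08 (SD 0.21, n = 3) before birth and 8.01 (SD 0.15, n = 3) at birth, a difference of 0.93. In Mir25 the 3p arm stood at 289, 145 and 282 times the 5p arm at E14.5 and at 369, 58.2 and 100.4 times at P0. That ratio spread most among the P0 libraries, from the highest of the 6 in replicate 1 to the lowest in replicate 2, and the stages overlapped.

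**Figure D2:**
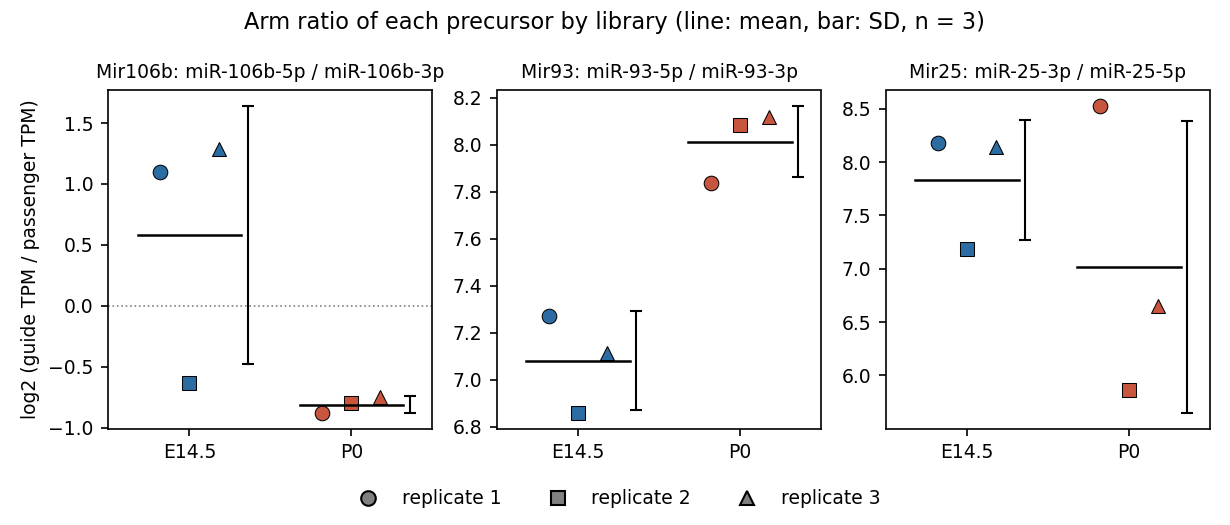
Log2 of the guide over the passenger strand in TPM for Mir106b, Mir93 and Mir25, 1 point per library, with the stage mean (line) and SD (bar, n = 3) on separate vertical scales. For Mir106b, E14.5 replicate 2 lies at −0.63 close to the P0 libraries while the other E14.5 libraries lie above 0; for Mir93 every P0 library lies above every E14.5 library.

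With 3 libraries against 3, an exact two-sided permutation test cannot give a p below 0.1. It gave 0.1 for the log2 arm ratios of Mir106b and Mir93 and 0.4 for Mir25, which became 0.15, 0.15 and 0.4 after adjustment over the 3 precursors. A limma fit of the 5p over 3p ratio across 145 precursors with both arms at a mean of at least 10 TPM, chosen after seeing the data, called 0% of them. Precursors are counted here as pairs of arms. Some pairs share an arm made by several hairpins, so not all of them are independent or stand for a single hairpin. At an unadjusted p under 0.05, 50 precursors passed (34.5%). Mir93 had a difference of 0.90 (SE 0.27, limma adjusted p = 0.0965), and Mir106b had −1.38 (SE 0.58, limma adjusted p = 0.141). The ratios did not overlap between stages in 37.2% of the 145 precursors, and in 2 of the 3 of this cluster, from which nothing more is read. Without P0 replicate 1, 58.6% of precursors were called, Mir93 (limma adjusted p = 0.0150) and Mir25 (limma adjusted p = 0.0204) among them and Mir106b not (limma adjusted p = 0.104).

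The 3 guide strands also differed in how closely they kept to one another across the 6 libraries, although their hairpins share 1 intron. The log2 ratio of miR-93-5p to miR-25-3p had an SD of 0.22, the smallest of the 15 pairs of members. That of miR-106b-5p to miR-93-5p had an SD of 1.55 and that of miR-106b-5p to miR-25-3p 1.64. The ratio of the passenger strands miR-106b-3p and miR-93-3p varied little, with an SD of 0.37. miR-106b-3p thus stayed closer to the arms of Mir93 than miR-106b-5p did, at 0.59 against miR-93-5p. The largest SD was that between miR-106b-5p and miR-25-5p, at 2.35. SDs over the same 6 libraries are descriptions and share the difference between stages.

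As a share of the summed guide strands, miR-106b-5p took 4.27%, 0.953% and 3.73% at E14.5 and 0.388%, 0.455% and 0.458% at P0. Its share was lower in every P0 library than in any E14.5 library. miR-25-3p took 46.5%, 43.4% and 46.1% at E14.5 and 48.6%, 54.4% and 52.8% at P0, higher in every P0 library. miR-93-5p took between 45.1% and 55.6%, with overlap. The exact two-sided permutation p was 0.1 for miR-106b-5p and miR-25-3p and 0.3 for miR-93-5p, or 0.15, 0.15 and 0.3 after adjustment over the 3 guides.

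The sum of the 6 members consisted mostly of miR-93-5p and miR-25-3p. It was 24374, 35093 and 23738 TPM at E14.5 and 42158, 12928 and 12702 TPM at P0, or 1.30% to 4.30% of the reads of a library. The P0 libraries held both the highest and the lowest sums, and the exact two-sided permutation p was 0.6. The mean log2 sum differed by −0.52 between P0 and E14.5 with all libraries and by −1.09 without P0 replicate 1. It differed by −0.24 without P0 replicate 2, −0.22 without P0 replicate 3 and −0.34 without E14.5 replicate 2. After median-of-ratios scaling the mean sum was 17951 (SD 5263, n = 3) before birth and 31651 (SD 14256, n = 3) at birth, with the lowest P0 sum inside the E14.5 range and an exact two-sided permutation p of 0.2.

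The miR-106b-25 guides were next set against those of the miR-17-92 cluster, so that library scaling cancels. Their sum was 0.565, 1.18 and 0.658 times that of the 6 miR-17-92 guides at E14.5 and 2.57, 1.74 and 1.94 times at P0. Every P0 library was above every E14.5 library. The mean log2 ratio was −0.40 (SD 0.56, n = 3) before birth and 1.04 (SD 0.29, n = 3) at birth, a difference of 1.44 with an exact two-sided permutation p of 0.1, the smallest that 3 against 3 allow. Leaving out any 1 library gave differences from 1.22 to 1.75. The sums differed widely among the P0 libraries, at 41712, 12688 and 12519 TPM for miR-106b-25 and 16251, 7289 and 6439 TPM for miR-17-92. P0 replicate 1 thus held the highest miR-106b-25 sum of the 6 libraries, and the others the lowest. At E14.5 the miR-106b-25 sum was between 23260 and 34319 TPM. The miR-17-92 sum was between 29170 and 42087 TPM at E14.5.

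**Figure D3:**
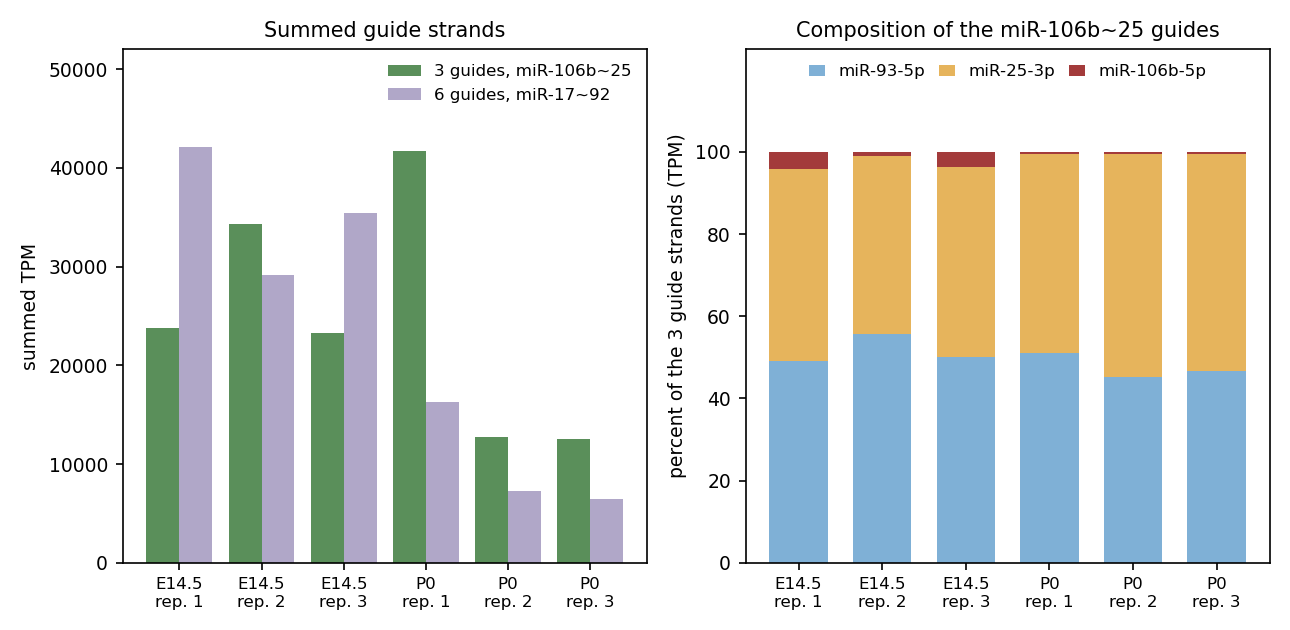
Left, summed TPM per library of the 3 guide strands of miR-106b-25 and the 6 guide strands of miR-17-92; right, the percentage of each guide in the miR-106b-25 sum. The miR-17-92 bar is the taller in E14.5 replicates 1 and 3 and the miR-106b-25 bar in the other 4 libraries, and miR-106b-5p takes at most 4.27% at E14.5 and at most 0.458% at P0.

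Most strands of the paralogue miR-17-92 fell in TPM. Of the 12 arms of miR-17-92, 8 were called lower and 0 higher in TPM, with a median log2 fold change of −2.83, against the 32.8% of all tested miRNAs. After median-of-ratios scaling 2 of 12 were called lower, against 5.22% of all tested miRNAs. The guides miR-18a-5p (−3.63), miR-19a-3p (−4.20), miR-20a-5p (−3.54), miR-19b-3p (−2.98) and miR-17-5p (−1.91) were all called lower in TPM, with limma adjusted p between 0.00332 and 0.0391. miR-19b-3p had 6789, 4733 and 5083 TPM at E14.5 and 6381, 250.2 and 206 TPM at P0, so P0 replicate 1 lay inside the E14.5 range. Without that library its log2 fold change was −4.58, and without any other library it was not called (limma adjusted p from 0.0931 to 0.116). miR-17-5p was not called without E14.5 replicate 1 (limma adjusted p = 0.0554) or E14.5 replicate 3 (0.0672), nor was miR-19a-3p without E14.5 replicate 3 (0.0532). miR-92a-3p, which has the seed of miR-25-3p, was the exception at −0.79 (limma adjusted p = 0.186). After scaling, miR-18a-5p was the only guide called (−2.34, limma adjusted p = 0.0311). miR-19b-3p and miR-92a-3p have a second genomic copy in miR-106a-363, and their reads do not tell the copies apart.

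Of the 10 listed arms of miR-106a-363, 8 were in the table and 6 passed the filter. miR-18b-3p and miR-363-5p passed it only through E14.5, with means of 2.02 and 5.27 TPM there and 0 and 0.53 TPM at P0, so no count or median over the 6 is given. The other 4 were miR-106a-5p, miR-18b-5p, miR-20b-5p and miR-363-3p, with limma log2 fold changes from −4.66 to −2.98 in TPM. miR-20b-5p had 237, 194 and 199 TPM at E14.5 and 26.5, 3.22 and 3.95 TPM at P0. Its log2 fold change was −4.66 in TPM (limma adjusted p = 0.00332) and −3.48 scaled (limma adjusted p = 0.0273). miR-106a-5p had 297, 143 and 221 TPM at E14.5 and 24.3, 27.3 and 26.1 TPM at P0. Its log2 fold change was −2.98 in TPM (limma adjusted p = 0.00436) and −1.71 scaled (limma adjusted p = 0.0557), close to the −3.01 and −1.73 of miR-106b-5p.

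Grouped by seed, 5 of the 6 miRNAs with the seed AAAGUGC were called lower in TPM, with a median of −2.99, against 32.8% of all tested miRNAs. miR-93-5p was the one not called with all 6 libraries. After scaling 1 of 6 was called, miR-20b-5p, against 5.22% of all tested miRNAs called lower. miR-93-5p was the most abundant miRNA of this seed in every P0 library and in E14.5 replicate 2. miR-17-5p had 13378, 6468 and 12249 TPM and miR-20a-5p 12341, 7080 and 9334 TPM in the E14.5 libraries. They had 2226, 3252 and 2771 TPM and 3628, 420 and 337 TPM in the P0 libraries, below the level of miR-93-5p in each. In E14.5 replicates 1 and 3 miR-17-5p was above miR-93-5p.

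Among the miRNAs with the seed AUUGCAC, miR-25-3p was the most abundant in every library. Of the 5 in the table, all passed the filter and 2 were called lower in TPM, near the 32.8% of all tested miRNAs. These were miR-32-5p (−2.42, limma adjusted p = 0.0127) and miR-363-3p (−3.48, limma adjusted p = 0.00400). miR-32-5p had 807, 192 and 560 TPM at E14.5 and 112, 71.8 and 67.6 TPM at P0, a pattern over libraries like that of miR-106b-5p. miR-92b-3p had −0.63 in TPM (limma adjusted p = 0.389) and never exceeded 25.2 TPM. After scaling 1 of the 5 was called, miR-363-3p (−2.37, limma adjusted p = 0.0461), against 5.22% of all tested miRNAs called lower.

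**Figure D4:**
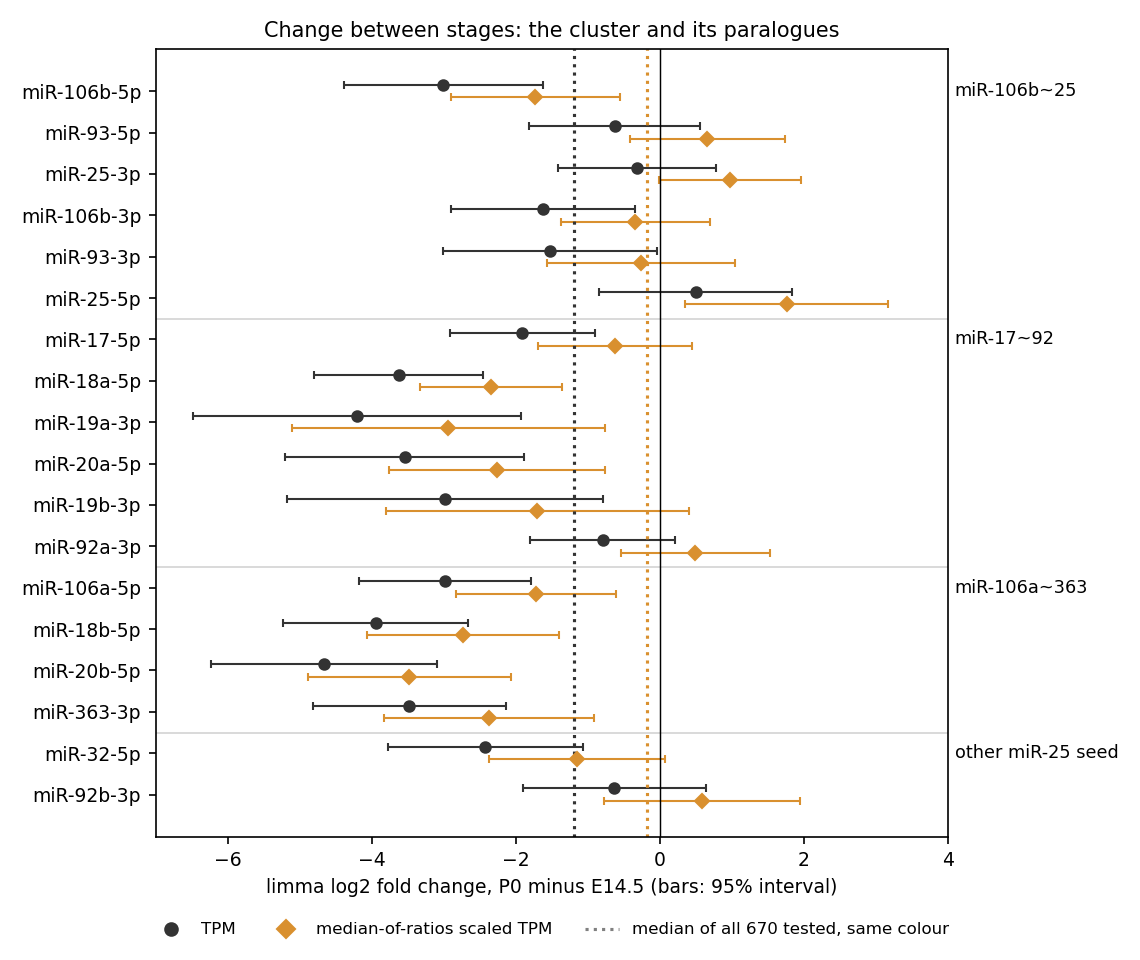
Limma log2 fold change, P0 minus E14.5, with 95% intervals, of the 6 members, the guide strands of the paralogue clusters and 2 further miRNAs with the miR-25 seed, in TPM (circles) and after median-of-ratios scaling (diamonds); dotted lines mark the median of all 670 tested miRNAs, −1.20 and −0.17. miR-93-5p, miR-25-3p, miR-25-5p, miR-92a-3p and miR-92b-3p lie to the right of the median under both scalings, and miR-106b-5p lies to its left.

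Likeness to other miRNAs was measured as the SD over the 6 libraries of the difference in log2(TPM + 1) to each guide, among the 223 other miRNAs whose mean reached 100 TPM. Apart from the pseudocount and the limit of 100 TPM, the scaling of libraries cancels in this measure. For miR-93-5p the closest were miR-10b-3p (SD 0.19), miR-10a-5p (0.21) and its cluster neighbour miR-25-3p (0.22), against a median SD of 1.01 over the candidates. For miR-25-3p they were miR-10a-3p (0.19), miR-339-5p (0.19) and miR-181c-3p (0.21), against a median of 1.03. For miR-106b-5p they were miR-20a-3p (0.35), a passenger strand of miR-17-92, miR-455-5p (0.38) and the erythroid miR-451a (0.40), against a median of 1.28. No member of its own cluster was among the closest to miR-106b-5p.

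Marker miRNAs of other cells were also compared between the stages, and their part in the changes of the members was not tested. In TPM the summed level of the 2 endothelial miR-126a arms was 26608 to 44921 at E14.5 and 5634 to 8158 at P0. That of 5 stromal miRNAs was 22316 to 34716 at E14.5 and 7684 to 14949 at P0. The 5 erythroid miRNAs came to 242 to 417 TPM at E14.5 and 128 to 194 at P0, and the 5 leukocyte miRNAs to 797 to 1540 and 507 to 751. The erythroid markers did not all move alike. In TPM the log2 fold changes were −2.70 for miR-451a (limma adjusted p = 0.00605), −2.26 for miR-144-5p and −1.07 for miR-144-3p. They were positive for miR-486a-5p (0.76) and miR-486a-3p (1.54). After scaling, miR-451a (−1.44) and miR-144-5p (−1.25) stayed negative, and miR-144-3p (0.16), miR-486a-5p (2.03) and miR-486a-3p (2.09) were positive. Of these 4 lists, only the erythroid one had a marker at 0, miR-486a-3p in at least 1 library. That marker passed the filter only through P0, with means of 0.15 TPM at E14.5 and 2.75 TPM at P0. No count of calls is therefore given for the erythroid list. In TPM, 2 of 2 endothelial, 5 of 5 epithelial, 2 of 5 stromal and 1 of 5 leukocyte markers were called lower. The share over all tested miRNAs was 32.8%, and none of these markers was called higher. The stromal and leukocyte counts are thus near or under the background. After median-of-ratios scaling, 1 endothelial and 3 epithelial markers were called lower and 1 leukocyte marker higher, with no call among stromal markers. The shares over all tested miRNAs were then 5.22% lower and 5.67% higher. The scaled sums overlapped between stages for the stromal, erythroid and leukocyte lists. They did not for the endothelial list, at 16727 to 29714 and 9302 to 14313, or for the epithelial list, at 2805 to 15335 and 947 to 1758.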

How the data were processed

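The 6 small RNA libraries were made with the QIAseq miRNA kit from total RNA, per the labels' protocols. The authors deposited 1 table of 1104 rows with TPM per library and, per the file headers, their baseMean (a normalised signal), log2 fold change with its standard error, test statistic (a score), p-value and adjusted p-value. The submitters' processing notes name featureCounts, DESeq2 1.26.0 and the build mm10, without roles. Trimming, aligner and use of molecular tags are not given in the sources used here. Their fold change was read as P0 relative to E14.5, since miRNAs far lower in TPM at P0, such as miR-20b-5p, have negative values in the authors' deposited table. Each deposited TPM value times end minus start was a whole multiple of 1 step per library in 100% of values (relative tolerance 1e-06), which gave the reads. Of the 1034 miRNAs, 52 had several rows, and each kept its row of highest total.

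The test was limma 3.58.1 in R 4.3.3, with trended variances, on log2(TPM + 1), pseudocount 1, over the 670 miRNAs whose mean reached 1 TPM, with the stage as the only term. A fold change on this scale understates the change of low miRNAs. Within-library ratios and sums had exact two-sided permutation tests (scipy 1.17.1). The scripts were tested on simulated data. Named miRNAs were the 6 members, the guides of miR-17-92, 5 seed relatives and the 3 closest miRNAs to each guide. miR-18b-5p, miR-18b-3p, miR-363-5p and both arms of miR-144 and miR-486a are named outside this rule and were chosen after their values were seen. The members and lists were chosen with earlier results of these data known. Labels give no sequencing batch. Libraries of a stage differed by far more than counting error, so none was counted as a duplicate. p-values measure the spread between litter pools. Alternatives were 2 other scalings, limma-voom on the recovered reads, other filters and pseudocounts, summed rows, a GC correction (sequence known for 885 of 1034 miRNAs, 85.6%), the replicate number as a block, and leaving out each library.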

Additional observations from a re-analysis of the deposited data

How the results depend on the processing

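The precision was limited by 3 libraries per stage, by P0 replicate 1, which differed from its group, and by the choice of scaling. The fall of miR-106b-5p kept its direction under all alternatives run, while miR-93-5p and miR-25-3p turned positive wherever the typical miRNA was set near 0. The cause of these changes was not tested, and counting error was small beside the spread between libraries.

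With TPM, 229 miRNAs and 2 members were called. With median-of-ratios scaling 73 miRNAs (38 higher and 35 lower at P0) and 0 members were, with log2 fold changes of −1.73 for miR-106b-5p, −0.34 for miR-106b-3p, 0.66 for miR-93-5p and 0.97 for miR-25-3p, and a log2 change of the summed members of 0.77 against −0.52 in TPM. Upper-quartile scaling called 63 (38 higher, 25 lower) and 0 members, with −1.60, −0.21, 0.80 and 1.11 for the same 4 miRNAs. limma-voom with median-of-ratios size factors called 28 and 0, with −1.69, −0.34, 0.66 and 0.97. The GC correction called 63 (33 higher, 30 lower) and 0, with −1.52, −1.15, 0.39 and 0.81. In TPM, the call of miR-106b-3p was lost with limma-voom on the recovered reads (−1.65), without a filter (−1.62), with a pseudocount of 0.1 (−1.63) and with rows summed (−1.62), each leaving 1 member called. A filter at 10 TPM kept 2.

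The replicate number as a block called 247 miRNAs and 2 members in TPM. The replicate block with median-of-ratios scaling called 67 and 0, with −1.73, −0.34, 0.66 and 0.97, and the block with the GC correction called 72 and 0, with −1.52, −1.15, 0.39 and 0.81. The deviations of same-numbered libraries correlated at 0.193, 0.183 and 0.0423 and those of others at −0.182 to 0.077, so the numbers were not taken to pair the samples.

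Leaving out each library in turn gave 66 (without E14.5 replicate 3) to 410 calls (without P0 replicate 1) and 0 to 5 members called in TPM. The log2 fold changes ranged from −3.51 to −2.70 for miR-106b-5p, −2.15 to −1.34 for miR-106b-3p, −1.25 to −0.30 for miR-93-5p, −2.22 to −1.17 for miR-93-3p, −0.84 to −0.031 for miR-25-3p and 0.18 to 0.97 for miR-25-5p. With median-of-ratios scaling, chosen with this step after seeing the data, the ranges were 0 to 326 calls (without P0 replicate 1), 0 to 2 members called, −2.19 to −1.40 for miR-106b-5p, −0.65 (without P0 replicate 1) to −0.15 (without P0 replicate 3) for miR-106b-3p, 0.26 (without P0 replicate 1) to 0.94 for miR-93-5p, 0.67 to 1.17 for miR-25-3p, −0.74 to 0.12 for miR-93-3p (reversed, at 0.12, without E14.5 replicate 2) and 1.30 to 2.27 for miR-25-5p. The log2 change of the summed members in TPM ranged from −1.09 (without P0 replicate 1) to −0.22 (without P0 replicate 3). The arm ratios across precursors gave 0 to 85 calls with a library left out and 3 calls among 44 precursors with both arms at 100 TPM. The log2 ratio to miR-17-92 moved from 1.44 to 1.90 without miR-19b-3p and miR-92a-3p.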
